A study of Caenorhabditis elegans with 2 samples.

Results

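The AP-1, CREB and C/EBP genes examined here were jun-1, fos-1, crh-1, crh-2, cebp-1 and cebp-2, 6 of 19973 protein-coding genes of Caenorhabditis elegans. They were chosen by symbol on the same peak signals described here, since binding of NHR-6 near some of them had already been seen, so every count below is a description and carries no test. Chromatin immunoprecipitation followed by sequencing (ChIP-seq) located the protein in 2 biological replicates that form 1 group. Both came from whole larvae of the second larval stage (L2) of strain OP90 (unc-119(ed3) III; wgIs90). The labels give their sex as males and females pooled. The strain carries an insertion with eGFP-tagged NHR-6, and the antibody field names nhr-6. The labels do not give the promoter that drives the tagged protein or the cells that hold it, and a signal from whole larvae cannot be placed in a tissue.

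Basic leucine zipper (bZIP) proteins grip DNA as pairs, with a basic stretch on the DNA and a zipper holding the partners together. Jun and Fos proteins pair as AP-1, CREB proteins bind the cyclic AMP response element (CRE), and C/EBP proteins form a further branch. NHR-6 is the worm NR4A nuclear receptor and is needed for the spermatheca to form. In mammals the NR4A genes, Fos and Jun are immediate early genes, switched on quickly by stimuli, and CREB is a known activator of NR4A genes. In the worm, fos-1 lets the anchor cell breach the basement membrane during vulval development, crh-1 acts in memory, and cebp-1 acts in axon regrowth downstream of the kinase DLK-1.

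Each list of peaks carries the authors' signal value per peak, which ranks peaks within that list only. Relaxed lists of 30000 peaks, weak candidates included, exist for each replicate and for both pooled, and the optimal set holds 1662 peaks kept by the authors' test of reproducibility. They are the 1662 highest of the pooled list, with signals from 52.6 to 912.7 and a median of 77.2. A promoter window took in 1000 bp before and 200 bp after an annotated 5′ end. Positions are on ce11, which is the Ensembl build WBcel235. Read depth is unknown, and no control sample was used here.

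The optimal set placed NHR-6 at 5 sites in the promoter windows of 3 of the genes, jun-1, crh-1 and cebp-1. The sequence at these sites is shown because the genes that have a site differ in the words it holds. Each run below is the RefSeq reference (WBcel235) from 100 bases before to 100 bases after a summit, written 5′ to 3′ along the strand of the gene. Capitals mark CTGCGTC and the AP-1 site TGANTCA on either strand.
jun-1, first 5′ end, chrII:9112926-9113126, plus strand: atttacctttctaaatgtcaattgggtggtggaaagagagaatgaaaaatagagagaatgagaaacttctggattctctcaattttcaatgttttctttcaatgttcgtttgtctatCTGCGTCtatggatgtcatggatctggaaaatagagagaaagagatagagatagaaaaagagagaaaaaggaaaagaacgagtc
jun-1, intron site, chrII:9117863-9118063, plus strand: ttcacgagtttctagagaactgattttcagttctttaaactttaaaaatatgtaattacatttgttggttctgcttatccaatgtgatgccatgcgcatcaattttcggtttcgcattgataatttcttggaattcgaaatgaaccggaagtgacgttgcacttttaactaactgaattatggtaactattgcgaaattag
crh-1, first 5′ end, chrIII:11657262-11657462, plus strand: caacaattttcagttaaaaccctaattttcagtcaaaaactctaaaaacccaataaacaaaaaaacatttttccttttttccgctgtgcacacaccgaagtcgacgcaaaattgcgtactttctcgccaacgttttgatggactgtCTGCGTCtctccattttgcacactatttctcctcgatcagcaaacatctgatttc
crh-1, intron site, chrIII:11689390-11689590, plus strand: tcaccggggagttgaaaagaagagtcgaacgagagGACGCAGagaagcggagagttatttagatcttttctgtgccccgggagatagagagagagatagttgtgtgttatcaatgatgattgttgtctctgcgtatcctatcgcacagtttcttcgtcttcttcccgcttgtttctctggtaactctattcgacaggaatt
cebp-1, chrX:1454537-1454737, minus strand: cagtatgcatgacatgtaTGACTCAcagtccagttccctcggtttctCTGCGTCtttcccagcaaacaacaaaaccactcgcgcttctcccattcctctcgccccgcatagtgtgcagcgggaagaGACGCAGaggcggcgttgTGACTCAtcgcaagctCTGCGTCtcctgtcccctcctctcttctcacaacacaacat

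The gene crh-2 had no optimal peak, but both of its highest weak sites are shown because they share another word. Capitals mark TGACGTG on either strand.
crh-2, site 672 bp upstream of the last 5′ end, chrII:5181661-5181861, minus strand: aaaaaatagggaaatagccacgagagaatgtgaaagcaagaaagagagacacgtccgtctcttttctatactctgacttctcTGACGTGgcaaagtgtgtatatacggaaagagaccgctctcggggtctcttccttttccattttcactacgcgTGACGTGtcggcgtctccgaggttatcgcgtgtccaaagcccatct
crh-2, site 1487 bp upstream of the last 5′ end, chrII:5182476-5182676, minus strand: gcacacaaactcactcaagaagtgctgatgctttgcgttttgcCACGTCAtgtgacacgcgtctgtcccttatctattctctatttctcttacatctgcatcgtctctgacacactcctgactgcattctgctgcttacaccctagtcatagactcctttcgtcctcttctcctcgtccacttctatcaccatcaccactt

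Of the 6 genes, 3 had an optimal summit in a promoter window, where 5.93% of all protein-coding genes had one (1185 of 19973). These peaks helped to choose the genes, so nothing is read from the difference. Counted by 5′ end, 5 of the 28 annotated 5′ ends of the 6 genes had an optimal summit in the window, against 5.76% of all 29314 distinct 5′ ends. Optimal summits at 2 or more positions in promoter windows were found at jun-1 and crh-1, 2 of the 6 genes, against 0.210% of all genes (42 of 19973). An optimal summit in an intron was found in the same pair, against 1.48% of the 19288 genes with an intron. These intron summits also lie in promoter windows, so both counts rest in part on the same sites. jun-1 has 9 annotated 5′ ends over 19075 bp and crh-1 has 7 over 36215 bp. The part of window number and gene length in these counts was not tested.

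**Figure D1:**
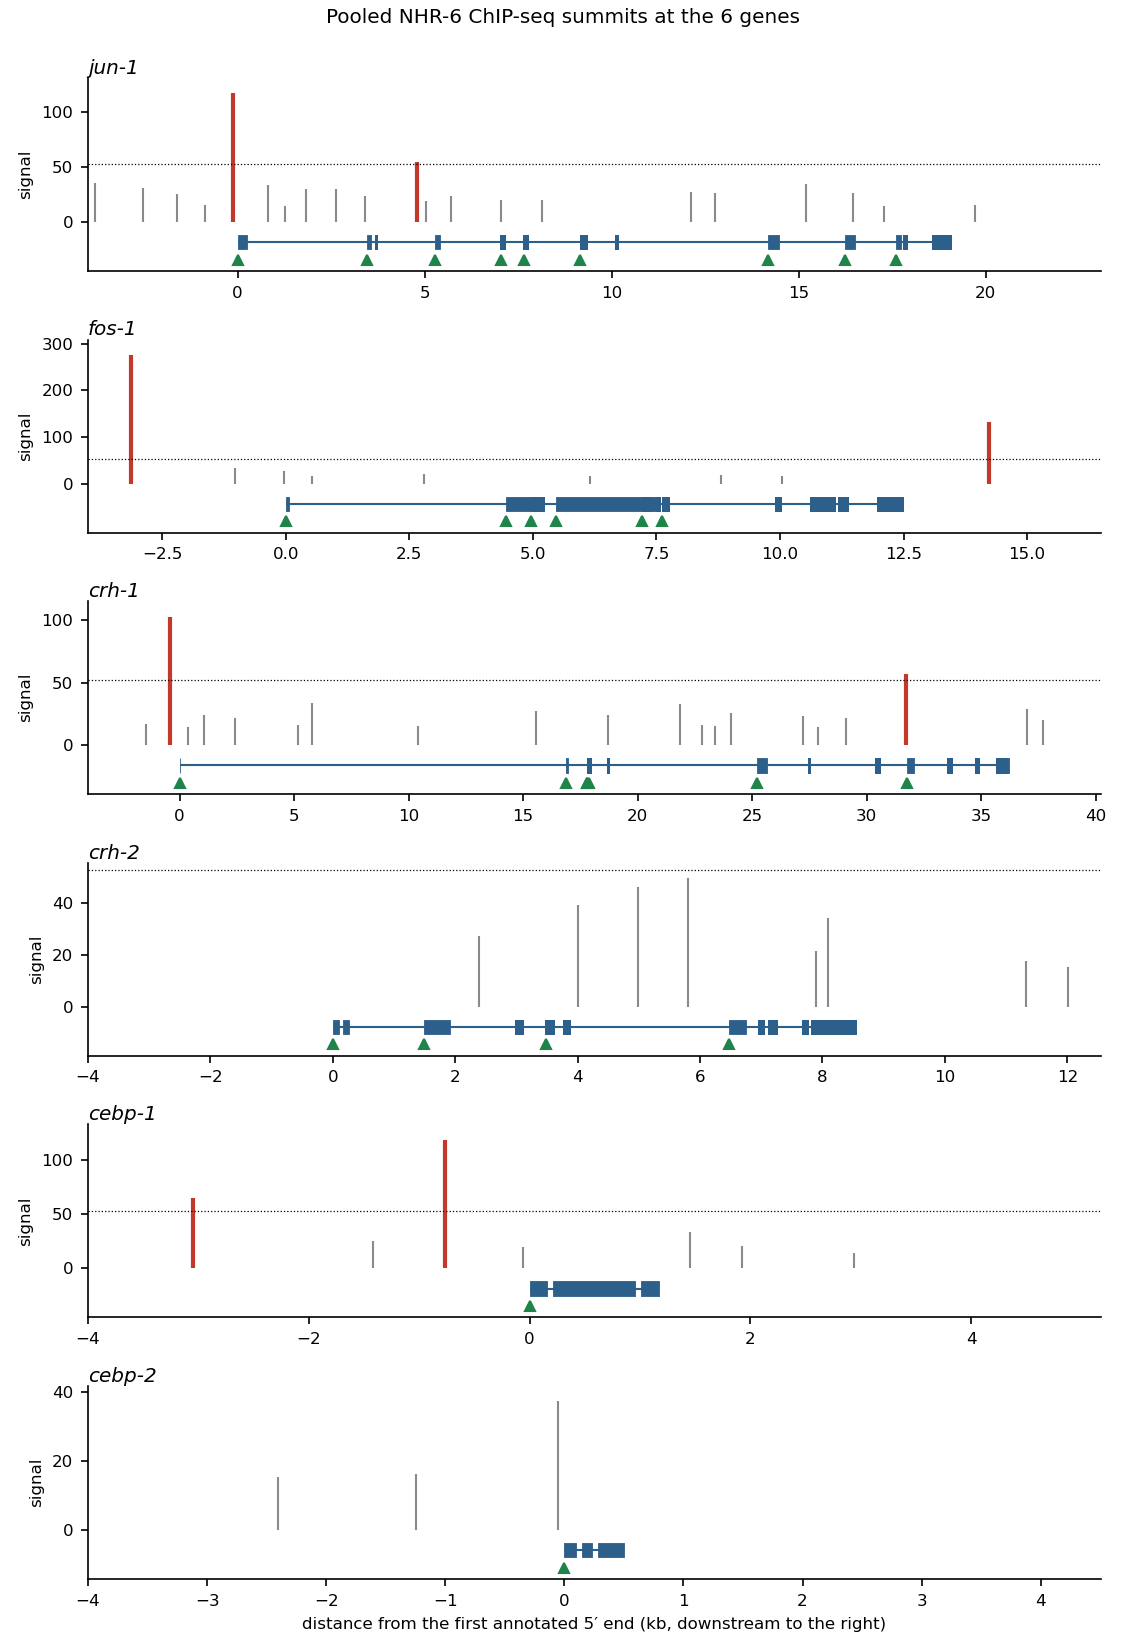
Summits of the pooled relaxed list along each gene, with distance from the first annotated 5′ end in kb on the horizontal axis and the authors' signal on the vertical axis. Red lines are optimal peaks, grey lines other pooled peaks, blue boxes exons and green triangles annotated 5′ ends. The dotted line is the lowest optimal signal (52.6). Red lines stand in the windows of jun-1, crh-1 and cebp-1, while those at fos-1 and a further red line at cebp-1 lie outside the windows.

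At jun-1 (WBGene00012005, II, 9113157 to 9132231, plus strand), which encodes the worm Jun protein, NHR-6 peaked just before the first 5′ end. The summit at 9113026 lay 131 bp upstream of transcript T24H10.7a.1, which codes for a protein of 319 residues. The pooled signal was 117.0 (rank 346), with 60.9 in replicate 1 (rank 774) and 52.2 in replicate 2 (rank 107). The site was thus well inside the 1662 highest peaks of both replicates, and it stood higher in the order of replicate 2. The same summit lay 68 bp upstream of T24H10.11, a non-coding RNA gene on the opposite strand, and 844 bp upstream of the piRNA gene 21ur-15099.

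The other optimal site of jun-1 was much weaker and lay in an intron, before an internal 5′ end. Its summit at 9117963 was 460 bp upstream of transcript T24H10.7f.1, which codes for 267 residues. The pooled signal was 54.3 (rank 1558), with 33.5 in replicate 1 (rank 2356) and 19.7 in replicate 2 (rank 1130). It therefore sat near the lower edge of the optimal set and was outside the 1662 highest peaks of replicate 1.

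jun-1 has 9 annotated 5′ ends, and the first codes for the longest protein, of 319 residues. Besides both optimal windows, 4 windows held a pooled relaxed summit, with highest signals from 14.4 (transcript T24H10.7c.1) to 29.9 (T24H10.7b.1). Among them, the windows of T24H10.7h.1 and T24H10.7i.1 held the same summit. Windows with a relaxed summit numbered 6 in replicate 1 and 5 in replicate 2. The window of T24H10.7d.1 held none in any of the lists. Over the whole gene 15 pooled summits were listed, 13 of them in introns, which is 7.86 per 10 kb where the genome has 2.99. The same density was 7.02 at crh-2 and 4.42 at crh-1. fos-1 held 5 summits in 12487 bp, and the short genes cebp-1 and cebp-2 held 0 summits.

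At crh-1 (WBGene00000793, III, 11657767 to 11693981, plus strand), the CREB gene, NHR-6 again peaked before the first 5′ end and at an internal one. The first summit, at 11657362, lay 405 bp upstream of transcript Y41C4A.4c.1, which codes for 314 residues. The pooled signal was 102.9 (rank 460), with 56.3 in replicate 1 (rank 922) and 37.8 in replicate 2 (rank 235). As at jun-1, both replicates had the site among their 1662 highest peaks, and replicate 2 ranked it higher.

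The internal site of crh-1 was weaker and close to the 5′ end of the form with the shortest protein. Its summit at 11689490 was 22 bp upstream of transcript Y41C4A.4f.1, which codes for 189 residues where the other forms have 306 to 428. The position is in an intron of the longer transcripts. The pooled signal was 56.9 (rank 1435), with 41.6 in replicate 1 (rank 1552) and 12.7 in replicate 2 (rank 3622). The replicates differed here, since only replicate 1 had the site among its 1662 highest peaks.

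The remaining 5 of the 7 annotated 5′ ends of crh-1 had no pooled relaxed summit in the window. Among them are Y41C4A.4a.1, Y41C4A.4b.1 and Y41C4A.4d.1, which begin close together and had no summit in either replicate. Weak summits were listed in 1 replicate only at Y41C4A.4e.1 (replicate 2, signal 6.36, rank 22157) and Y41C4A.4g.1 (replicate 1, signal 15.6, rank 14538). Introns of the gene held 15 pooled summits, the highest after the optimal one having signals of 34.2 at 11663564 and 33.2 at 11679608.

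At cebp-1 (WBGene00016997, X, 1452695 to 1453868, minus strand), which encodes a C/EBP protein, NHR-6 gave the highest window peak among the 6 genes in the pooled list and in replicate 1, but not in replicate 2, where jun-1, crh-1, fos-1 and crh-2 were higher. The gene has 1 annotated 5′ end, and the summit at 1454637 lay 769 bp upstream of it. The pooled signal was 118.3 (rank 334), with 106.9 in replicate 1 (rank 241) and 14.3 in replicate 2 (rank 2581). The replicates thus ranked this site very differently, and it was outside the 1662 highest peaks of replicate 2. Their summits lay 63 bp and 12 bp from the pooled one. A weaker optimal peak followed 3051 bp upstream of the 5′ end (X, 1456747 to 1457090, pooled signal 64.6, rank 1139), with rank 1193 in replicate 1 and rank 1220 in replicate 2. That summit was nearer to the 5′ end of D1005.2, 2103 bp away, than to cebp-1.

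**Figure D2:**
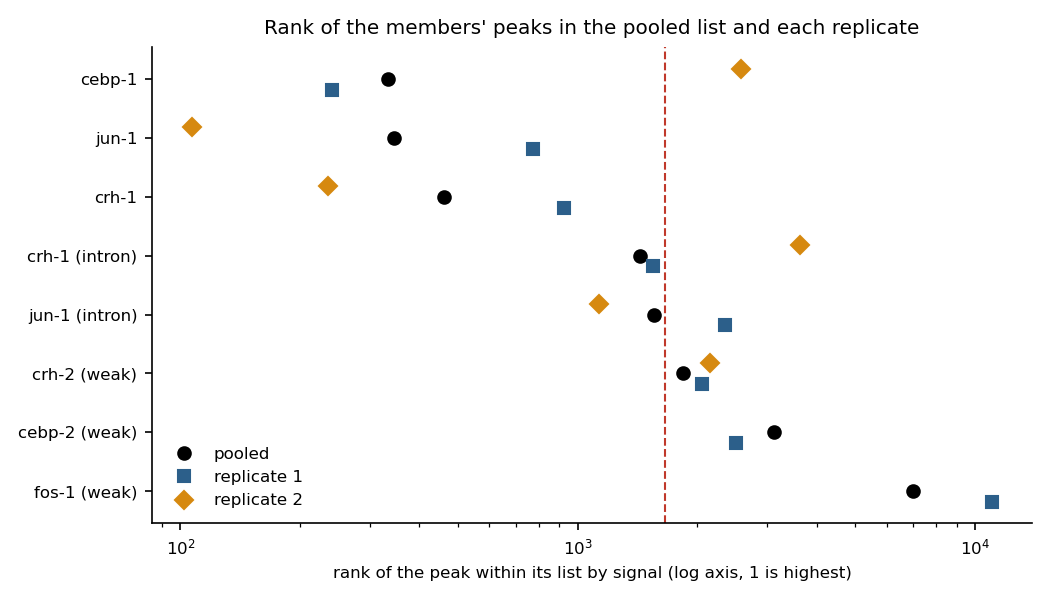
Rank of each peak within its list (log axis, 1 is highest) for the 5 optimal sites and for the highest pooled window peak of fos-1, crh-2 and cebp-2; circles are the pooled list, squares replicate 1 and diamonds replicate 2, taken as the highest summit within 200 bp. The dashed line is rank 1662; both replicates are left of it at the first sites of jun-1 and crh-1, and replicate 2 is right of it at cebp-1 (rank 2581) and at the internal crh-1 site (rank 3622), while fos-1 and cebp-2 have no replicate 2 summit to plot.

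The other 3 genes had no optimal summit in a window. crh-2 (WBGene00016162, II, 5179026 to 5187569, minus strand), related to CREB, came closest. Its highest pooled summit, at 5181761, lay in an intron 672 bp upstream of transcript C27D6.4a.1, which codes for 224 residues and is the last of 4 annotated 5′ ends. The pooled signal was 49.4 (rank 1845), just under the lowest optimal signal of 52.6, while the internal sites of crh-1 (56.9) and jun-1 (54.3) were just above it. In replicate 1 the summit within 100 bp was weak (92 bp away, signal 13.5, rank 20498), and a higher one lay 115 bp away (signal 36.0, rank 2055). In replicate 2 the summit was 93 bp away (signal 15.2, rank 2156). Neither replicate had it among its 1662 highest peaks. The summit lay 13 bp upstream of the non-coding RNA gene C27D6.14, on the opposite strand.

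A further pair of weak intron sites of crh-2 lay outside its windows. The summit at 5182576 had a pooled signal of 45.9 (rank 2125) and 46.5 in replicate 1 (rank 1278), with no summit within 200 bp in replicate 2. The summit at 5183567 had a pooled signal of 39.3 (rank 2834), with 29.2 in replicate 1 (rank 3087) and 7.71 in replicate 2 (rank 14810). The windows of the transcripts that begin furthest upstream, C27D6.4b.1 and C27D6.4c.1, held no summit in any list. In all 6 pooled summits were listed in the gene.

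fos-1 (WBGene00001345, V, 6003601 to 6016087, plus strand), which encodes the worm Fos protein, had only weak peaks in its windows, in contrast to its partner gene jun-1. Of its 6 annotated 5′ ends only the first, of F29G9.4a.1, had a pooled summit in the window. That summit lay 39 bp upstream with a pooled signal of 26.2 (rank 6980) and 17.4 in replicate 1 (rank 11056), with none within 200 bp in replicate 2. Replicate 2 instead had a summit 949 bp upstream, with signal 17.4 and rank 1526, inside its 1662 highest. The matching pooled summit was 1024 bp upstream (signal 33.5, rank 3967), just beyond the window, as was that of replicate 1 (signal 18.2, rank 9807). The 5′ end of F29G9.4b.1, the only form with 467 residues in place of 331, had no summit in any list.

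Strong optimal peaks flanked fos-1 without lying in its windows. The highest was 3139 bp upstream of the first 5′ end (V, 6000419 to 6000524), with a pooled signal of 275.9 (rank 46), 240.3 in replicate 1 (rank 38) and rank 443 in replicate 2. It was among the 1662 highest of both replicates. fos-1 was the protein-coding gene with the nearest 5′ end, but the summit lay inside the non-coding RNA gene C10F3.15, 30 bp downstream of its 5′ end. The other lay 1740 bp past the end of the gene (summit 6017827, signal 133.2, rank 262), in the windows of rpt-2, a proteasome gene, and of aps-1, a gene of a clathrin adaptor, and 24 bp inside the non-coding RNA gene F29G9.10. Optimal summits beyond the window but within 5000 bp upstream of the first 5′ end, a distance chosen after the sites had been seen, were found at fos-1 and cebp-1, 2 of the 6 genes, against 6.75% of all genes.

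Weak peaks were found at all of the genes. A pooled relaxed summit stood in a window of all 6 genes, against 41.2% of all protein-coding genes. A relaxed summit in both replicates, at any position in the windows, was found for 5 of the 6, against 24.9%. The number of windows differed between the genes, with 9 annotated 5′ ends at jun-1, 7 at crh-1, 6 at fos-1, 4 at crh-2 and 1 each at cebp-1 and cebp-2, and its part in these counts was not tested.

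The exception was cebp-2 (WBGene00016754, I, 6253082 to 6253584, plus strand), which encodes a small C/EBP protein of 100 residues. Its summit lay 55 bp upstream of the 5′ end, with a pooled signal of 37.2 (rank 3131) and 32.4 in replicate 1 (rank 2509). Replicate 2 listed no summit in the window. The same summit was 674 bp upstream of lpd-2, a neighbouring gene on the same strand.

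All 5 optimal sites had a relaxed summit within 100 bp in both replicates, against 84.7% of all optimal summits (1408 of 1662), a set already kept for reproducibility. The distances ran from 0 to 63 bp, and within 50 bp the count was 3 of 5, against 62.6%. These shares are near those of the whole optimal set. In rank, only the first sites of jun-1 and crh-1 were among the 1662 highest of both. Replicate 1 alone had cebp-1 and the internal crh-1 site there, and replicate 2 alone had the internal jun-1 site. The authors' q-value does not separate the strong sites, since jun-1, crh-1 and cebp-1 all had the highest −log10 value of the pooled list (3.40), which 1252 peaks share.

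The known element of NR4A receptors was not in the printed sequences of the 5 optimal sites. Words were searched on both strands within 50 bases on either side of the summit. AAAGGTCA, the NR4A element, was in 0 of the 5 windows, against 0.481% of all optimal summits and 0.616% of stretches of the same length ending at the first 5′ end of each gene. AGGTCA, which is part of that element and was counted on its own too, was also in 0 of 5, against 2.89% and 3.09%. The search says only that these letters are not there.

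Among the exact words searched for the elements of the bZIP proteins themselves, only the AP-1 site was found. Inexact matches to these words were not counted. TGANTCA was in 1 of the 5 windows, that of cebp-1, against 2.29% of optimal summits and 3.25% of promoter stretches. The copy there lies 44 to 50 bp downstream of the summit, and another copy lies in the wider window printed above. The CRE word TGACGTCA was in 0 of 5, against 1.74% of optimal summits and 0.305% of promoter stretches. The C/EBP word TTGCGCAA was in 0 of 5, against 0.542% and 0.155%.

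Reading the sequences side by side brought out the word CTGCGTC, which was chosen after they had been seen. It was in 4 of the 5 printed windows, 1 copy at each of the jun-1 and crh-1 first sites and the internal crh-1 site and 3 copies at cebp-1. Over all optimal summits 17.9% of such windows held it (298 of 1662), over the next 1662 pooled peaks 9.87%, and over promoter stretches of the same length 3.25%. Within 50 bases of the summit it was in 2 of the 5, against 11.8%, 5.96% and 1.45%. The internal jun-1 site held none of the words searched. A weak site of jun-1, 805 bp downstream of the first 5′ end (signal 33.5, rank 3965), held 3 copies of CTGCGTC. No other weak site searched at the 6 genes held the word within 100 bases of the summit. The sites searched were the highest pooled summit of each window and up to 3 of the highest intron summits per gene.

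Both printed crh-2 sites differed. The site 672 bp upstream of the last 5′ end had 2 copies of TGACGTG and the site 1487 bp upstream had 1, within the printed windows, and CTGCGTC was in neither. The weaker crh-2 site at 5183567 had no copy of TGACGTG. The word was not confined to crh-2. A weak intron site of fos-1 (summit 6012406, pooled signal 18.3, rank 17408) held it 66 to 72 bp downstream of the summit. That fos-1 site also held an AP-1 site, 32 to 26 bp upstream of the summit. The word TGACGTG, which shares the letters TGACGT with the CRE word TGACGTCA, was also chosen after the sequences had been seen. In windows of that length it was in 0 of the 5 optimal sites, in 3.67% of all optimal summits, in 2.41% of the next 1662 and in 2.01% of promoter stretches. The share of G and C within 50 bases of the summit ran from 35.6% at the first jun-1 site to 58.4% at cebp-1, on both sides of the middle range of optimal summits (39.6 to 49.5% between quartiles, median 44.6%).

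**Figure D3:**
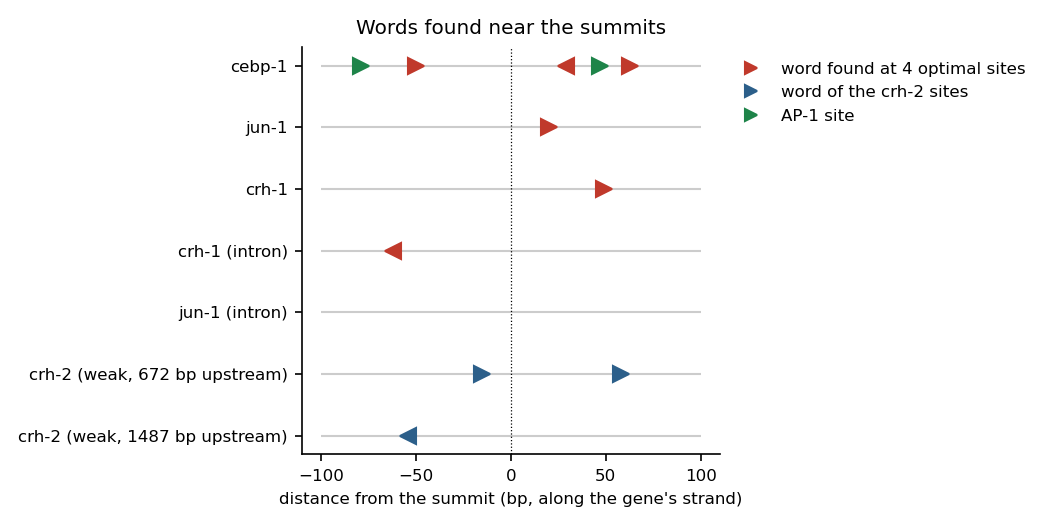
Position of each word within 100 bp of the summit, along the strand of the gene, for the 5 optimal sites and both crh-2 sites shown as sequence. Red marks CTGCGTC, blue TGACGTG and green the AP-1 site, with the arrow giving the strand; cebp-1 holds 3 red and 2 green marks, and the internal jun-1 site none.

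Set within the bZIP family, the 3 bound genes were among the 4 with the highest window peaks of the pooled list, but not of either replicate. In replicate 1 zip-2 (81.9), skn-1 (75.6) and atf-7 (65.2) stood above jun-1 (60.9) and crh-1 (56.3), and atf-6 (57.1) stood between them. In replicate 2 cebp-1 (14.3) stood below skn-1 (37.1), xbp-1 (22.3), zip-4 (19.0), atf-6 (18.4) and zip-1 (15.2). Of 22 other bZIP genes, 7 had an optimal summit in a window (31.8%, against 5.93% of all genes), and atf-5, also listed, was not found by symbol. Highest among them was skn-1, a regulator of the response to oxidative stress, with a pooled signal of 111.0, between jun-1 (117.0) and crh-1 (102.9). Signals were 81.2 at zip-2, a factor of pathogen defence, 76.4 at atf-7, a factor of p38 immune signalling, and 72.3 at xbp-1, the factor of the unfolded protein response. The last 3 were atf-4 (69.2), a factor of the integrated stress response, zip-4 (65.7) and atf-6 (63.9), a sensor of endoplasmic reticulum stress. The other 15 had no optimal summit in a window, and 10 of these had no pooled summit there. By the 1662 highest peaks of replicate 2 alone the bound ones were 4, skn-1, atf-6, xbp-1 and zip-4. By those of replicate 1 alone they were the same 7 as in the optimal set. This list too was chosen with earlier results of these data known, so nothing is read from its share.

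**Figure D4:**
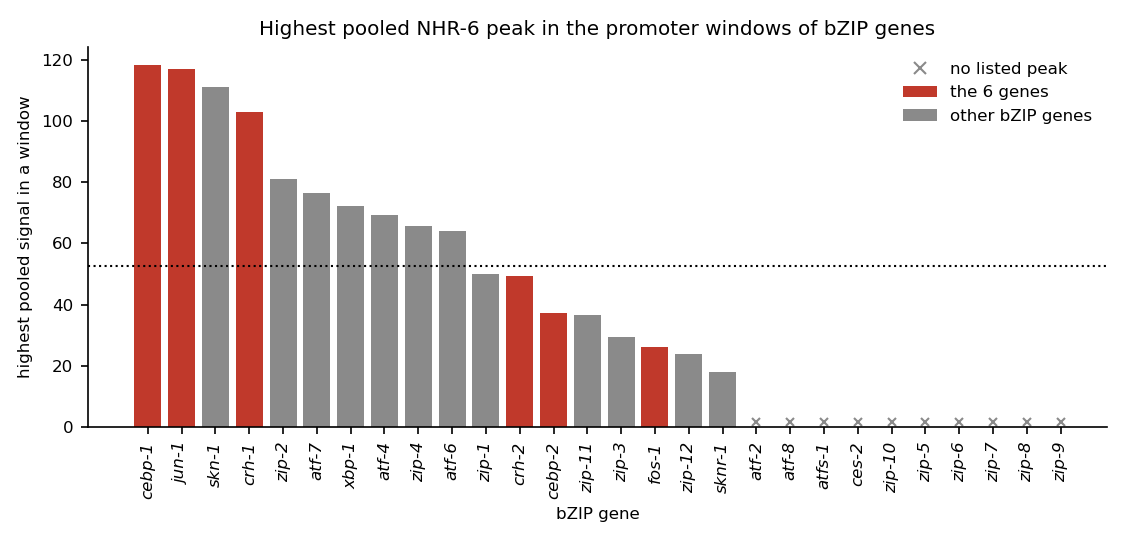
Highest pooled signal in any promoter window of each bZIP gene, with the 6 genes in red and other bZIP genes in grey; the dotted line is the lowest optimal signal (52.6) and crosses mark genes with no pooled summit in a window. Red bars stand at 118.3, 117.0 and 102.9 above the line and at 49.4, 37.2 and 26.2 below it.

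Genes known to act with CREB and AP-1 were also among the bound ones. Of 10 genes of CREB signalling, 4 had an optimal summit in a window, against 5.93% of all genes. These were cbp-1, the CBP/p300 coactivator (signal 199.8, rank 109), egl-30, a G protein alpha subunit (175.5, rank 147), aak-2, an AMP-activated kinase (80.4) and kin-1, the catalytic subunit of protein kinase A (76.8). At cbp-1 and kin-1 there were 2 optimal summits each. The coactivator gene crtc-1 and the calcium-dependent kinase gene cmk-1 had none, although cmk-1 had a pooled summit just under the optimal set (rank 1792).

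Of 10 genes of the kinase cascades upstream of AP-1, 3 had an optimal summit, the kinase genes mlk-1 (120.1), kgb-1 (89.1) and jnk-1 (58.1). The Ras gene let-60 and the ERK gene mpk-1 had none, although let-60 had a summit among the 1662 highest of replicate 2 (rank 1656). Of 7 genes of the DLK-1 cascade that controls cebp-1, only mak-2, a kinase of that cascade, had one (signal 52.7, rank 1659), and it was 3 places from the end of the optimal set. Of 6 genes that FOS-1 acts on or that act with it in the anchor cell, 0 had one, although unc-40, a netrin receptor, had a pooled summit just below (signal 50.3, rank 1769). Over the 4 lists 8 of 33 genes were bound (24.2%), where 5.93% of all genes were. The lists were chosen with earlier results of these data known, so nothing is read from these differences.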

How the data were processed

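NHR-6 ChIP-seq peak lists of 2 biological replicates and of both pooled were used, all on ce11. Per the file lists deposited beside the samples, each relaxed list drew on an alignment plus 1 file of undescribed content, and the authors obtained the optimal set from the relaxed lists by the irreproducible discovery rate. No source used here names the caller, the aligner or the threshold. The deposited signal value has no stated scaling, and the −log10 q-value is the authors' too. Lists on ce10 were not used, since no coordinates were converted.

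Gene models came from Ensembl release 115 and sequence from the RefSeq copy of WBcel235 (28 of 28 member coding regions began with ATG, and 0 peaks passed a chromosome end). All distinct 5′ ends of protein-coding transcripts were used, and a summit could lie in several windows. The 6 genes, the gene lists and the named genes were chosen with earlier results of these data known. Named genes were the 6, every listed gene with an optimal summit, and genes that share a summit with the 6. Every optimal summit in the windows and introns of the 6 is given, but some of their 5′ ends and weak window peaks are not named. Named after their values were seen were crtc-1, cmk-1, let-60, mpk-1, unc-40, the weak sites outside windows and the genes beside optimal peaks that flank fos-1 and cebp-1, as were the words CTGCGTC and TGACGTG. Replicate summits within 100 bp of a pooled one were called matched, taking the highest. No test was made, and p-values are absent because the genes were chosen from these peaks. Window assignment and word search were tested on simulated data. Read depth is unknown. Python 3.11.15, NumPy 2.4.6 and Matplotlib 3.10.9 were used.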

Additional observations from a re-analysis of the deposited data

How the results depend on the processing

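No paired analysis was possible because both samples form 1 group. With 3 bound genes in each case, leaving out replicate 1 changed which genes they were: the 1662 highest peaks of replicate 2 gave jun-1, crh-1 and fos-1, without cebp-1, and those of replicate 1 gave jun-1, crh-1 and cebp-1. With a replicate left out, the bound 5′ ends were 4 in both cases, the other bZIP genes 4 (without replicate 1) to 7, the genes of the 4 further lists 7 to 9 (without replicate 1, aak-2 and jnk-1 were lost and let-60, lin-45 and unc-43 gained; without replicate 2, mak-2 was lost), and the optimal sites with a matched summit 5. With only the 831 strongest optimal peaks, the bound 5′ ends fell to 3, the other bZIP genes to 2 and the genes of the further lists to 5. With windows from 500 bp upstream, cebp-1 was lost and 2 of the 6 genes remained. Matching within 50 bp kept 3 of the 5 optimal sites, where 62.6% of all optimal summits matched. The AP-1 word was in 0 of the windows of 51 bp. The other counts under windows from 2000 bp, the nearest 5′ end only, peak overlap, matching within 200 bp and, for the words other than CTGCGTC and TGACGTG, searches over 100 bases on either side of the summit stayed within 1.5 times of those given. CTGCGTC went from 2 to 4 of the 5 sites with that longer window. Depth is unknown, so what limits the weak sites was not measured.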
